A study of Mus musculus with 117 samples.

Results

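Stable state 3 regions are stretches of the mouse genome that carried the same chromatin state, number 3 of 14, in the hepatocytes of nearly every strain studied. A 200-bp bin on chromosomes 1 to 19 was taken as a member where state 3 was called in at least 7 of 9 inbred strains, and adjacent member bins were merged. This gave 10740 regions, made of 35614 bins. They are 34.4% of the 103565 autosomal bins that were in state 3 in at least 1 strain, and 0.289% of all 12313718 autosomal bins. The regions cover 7.12 Mb. The members were chosen by the state 3 calls themselves, so the level of state 3 inside them is given as a description only.

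The chromatin came from liver hepatocytes of females aged 12 weeks, untreated as far as the labels say, of the strains A/J, C57BL/6J, DBA/2J, 129S1/SvImJ, NOD/ShiLtJ and NZO/HlLtJ and the wild-derived WSB/EiJ, CAST/EiJ and PWK/PhJ. In each strain 3 mice were assayed by ChIP-seq, the sequencing of DNA fragments bound to a modified histone, for H3K4me1, H3K4me3, H3K27ac and H3K27me3, with 1 input library per strain. The 117 libraries are represented by 1 segmentation per strain, so the mice of a strain cannot be told apart and every SD below is between 9 strains. Reads per library and depth are not known.

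A segmentation divides the genome into bins and gives each bin the state whose combination of marks it resembles. In general H3K4me3 marks the starts of active genes, H3K4me1 marks enhancers and the shoulders of active promoters, H3K27ac accompanies activity at both, and H3K27me3 marks genes silenced by Polycomb proteins. Which marks make up each numbered state is not given in the sources used here, so state numbers serve as names only.

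Most of the regions lay at the starts of genes, and the promoters below show the kinds of sequence they covered. The first 4 belong to genes of liver function with long regions: Alb (albumin), Tat (tyrosine aminotransferase), Hnf4a (a transcription factor of hepatocyte identity) and Abcc2 (a transporter that exports conjugates into bile). The next 3 belong to genes used in nearly all cells whose regions had the same edges in every strain: Polr2a (the largest subunit of RNA polymerase II), Ppia (cyclophilin A) and Tbp (the TATA-binding protein). Yy1 (a zinc finger transcription factor) had the longest region with identical edges, and Brd2 (a bromodomain protein) lies in the longest region of all. Each runs 5′ to 3′ on the strand of the gene, from 150 bases before the RefSeq start through the first 30 transcribed bases (RefSeq, GRCm38.p6). Capitals mark matches on either strand to any of 13 short motifs, whose letters are given with their results below.
Alb, chr5:90460720-90460899, plus strand: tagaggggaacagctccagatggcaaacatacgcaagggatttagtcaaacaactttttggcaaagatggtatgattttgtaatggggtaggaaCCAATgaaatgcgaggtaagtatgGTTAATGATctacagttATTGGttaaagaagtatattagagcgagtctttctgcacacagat
Tat, chr8:109990286-109990465, plus strand: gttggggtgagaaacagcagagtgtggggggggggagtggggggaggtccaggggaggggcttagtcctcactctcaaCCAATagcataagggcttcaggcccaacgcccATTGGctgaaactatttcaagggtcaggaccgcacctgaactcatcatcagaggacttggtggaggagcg
Hnf4a, chr2:163547005-163547184, plus strand: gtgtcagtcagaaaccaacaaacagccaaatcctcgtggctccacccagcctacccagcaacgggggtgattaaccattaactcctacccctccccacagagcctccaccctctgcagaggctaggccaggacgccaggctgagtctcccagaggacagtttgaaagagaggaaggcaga
Abcc2, chr19:43782158-43782337, plus strand: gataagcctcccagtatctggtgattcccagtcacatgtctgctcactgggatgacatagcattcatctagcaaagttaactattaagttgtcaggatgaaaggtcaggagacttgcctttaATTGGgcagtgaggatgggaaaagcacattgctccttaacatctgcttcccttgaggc
Polr2a, chr11:69758604-69758783, minus strand: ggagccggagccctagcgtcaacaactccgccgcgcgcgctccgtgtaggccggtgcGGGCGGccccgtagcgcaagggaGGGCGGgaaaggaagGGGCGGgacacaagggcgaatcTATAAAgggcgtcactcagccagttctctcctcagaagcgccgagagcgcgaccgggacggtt
Ppia, chr11:6415717-6415896, plus strand: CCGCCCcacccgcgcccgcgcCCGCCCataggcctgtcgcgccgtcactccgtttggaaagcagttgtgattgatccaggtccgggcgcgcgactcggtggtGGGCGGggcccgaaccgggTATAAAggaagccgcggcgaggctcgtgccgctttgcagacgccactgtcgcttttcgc
Tbp, chr17:15499738-15499917, plus strand: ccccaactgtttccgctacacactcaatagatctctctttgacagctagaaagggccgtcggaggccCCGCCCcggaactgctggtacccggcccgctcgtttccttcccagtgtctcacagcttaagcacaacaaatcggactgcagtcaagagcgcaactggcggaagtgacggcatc
Yy1, chr12:108793147-108793326, plus strand: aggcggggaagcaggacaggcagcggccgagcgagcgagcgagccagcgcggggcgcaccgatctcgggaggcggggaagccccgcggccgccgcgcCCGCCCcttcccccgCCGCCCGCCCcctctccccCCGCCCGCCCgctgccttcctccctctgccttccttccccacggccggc
Brd2, chr17:34119871-34120050, minus strand: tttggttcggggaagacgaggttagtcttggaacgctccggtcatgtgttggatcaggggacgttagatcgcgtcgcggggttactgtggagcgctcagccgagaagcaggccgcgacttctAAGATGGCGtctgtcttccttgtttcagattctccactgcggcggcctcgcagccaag
The 180 printed bases hold 3 CpG dinucleotides at Alb, 3 at Tat, 3 at Hnf4a and 0 at Abcc2. The same length holds 23 at Polr2a, 26 at Ppia, 12 at Tbp, 26 at Yy1 and 17 at Brd2.

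The regions were short and mostly shared by all strains. Their median length was 600 bp (quartiles 400 and 800 bp, range 200 to 4800 bp). Single bins made up 2455 regions (22.9%), 2468 regions (23.0%) were at least 1 kb long, and 233 (2.17%) were at least 2 kb long. All 9 strains were in state 3 in 27268 of the member bins (76.6%), 8 strains in 4689 (13.2%) and 7 strains in 3657 (10.3%). In 4842 regions (45.1%) every bin was in state 3 in every strain.

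Over the genome, the number of strains that shared a state 3 bin was highest at its ends: 34623 bins were in state 3 in 1 strain only, and the counts fell to 3552 bins at 6 strains before rising to 27268 at 9. The members just inside the threshold, with 7 strains, and the bins just outside it, with 6, were therefore about equally common. Of the 7-strain bins, 88.7% were the first or last bin of their region, against 78.7% of the 8-strain bins and 44.3% of the 9-strain bins. The longest run of 7-strain bins was 1400 bp inside Pck1, the gene of gluconeogenic phosphoenolpyruvate carboxykinase (chr2:173153401-173154800), where NZO/HlLtJ and PWK/PhJ were in state 1. Runs of 1000 bp followed at Rrs1, a ribosome assembly factor, and at Med12l, a Mediator subunit paralog. The longest runs just outside the threshold, with 6 strains, were 1200 bp each. They lay at Map7d1, at St3gal5 and at a site on chromosome 10 with no listed protein-coding start within 1 kb.

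**Figure D1:**
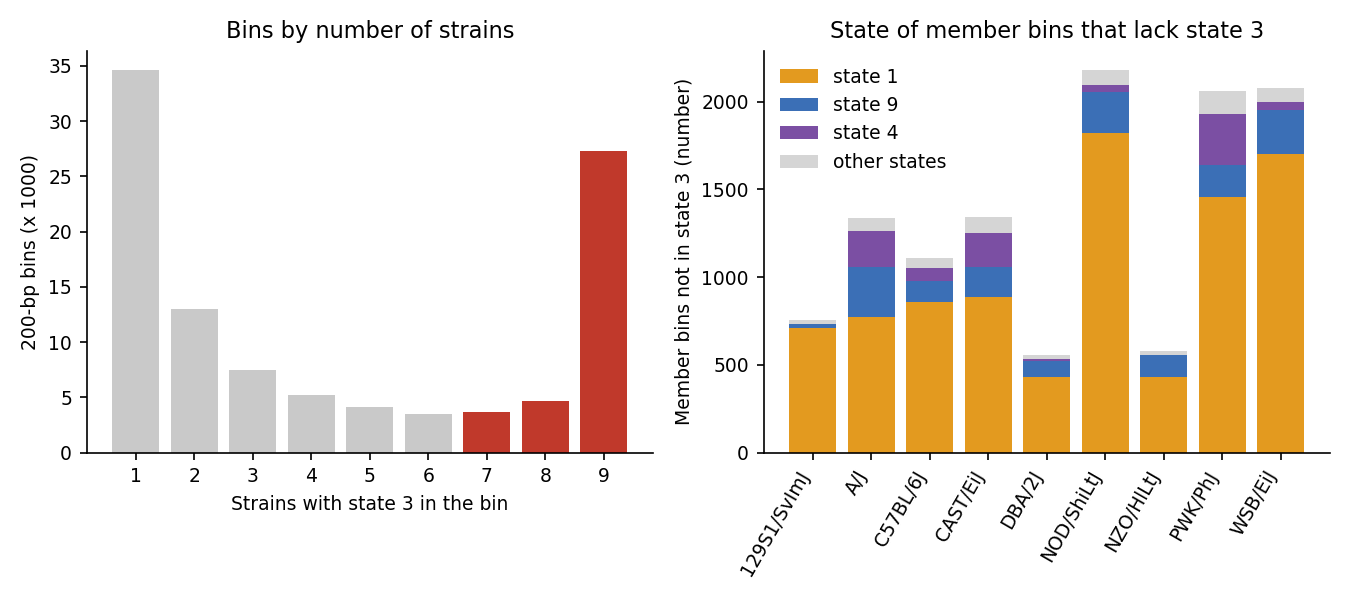
Left, autosomal 200-bp bins in state 3 (in units of 1000 bins) by the number of strains that share them, with the bins of the stable regions (7, 8 or 9 strains) in red. Right, the number of member bins that were not in state 3 in each strain, stacked by the state they carried instead. NOD/ShiLtJ, PWK/PhJ and WSB/EiJ have the tallest bars, with 2180, 2061 and 2075 bins, and state 1 forms the largest part of each bar.

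Every strain had state 3 in most members. The percentage of member bins in state 3 was 98.4% in DBA/2J, 98.4% in NZO/HlLtJ, 97.9% in 129S1/SvImJ, 96.9% in C57BL/6J, 96.2% in A/J, 96.2% in CAST/EiJ, 94.2% in PWK/PhJ, 94.2% in WSB/EiJ and 93.9% in NOD/ShiLtJ. The strains with the most state 3 in the whole genome, NZO/HlLtJ (57436 bins) and DBA/2J (56132 bins), were also those with the fewest gaps in the members. The share of a strain's state 3 that fell inside the regions ran the other way at the extremes, from 61.0% in NZO/HlLtJ to 74.8% in WSB/EiJ. The number of regions with no state 3 at all in a strain ranged from 125 in DBA/2J to 524 in PWK/PhJ.

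Where a strain lacked state 3 in a member bin, state 1 was usually in its place. Of the 12003 such cases, state 1 accounted for 75.6%, state 9 for 12.3%, state 4 for 7.21% and state 8 for 1.82%. The share of state 1 ranged from 57.7% in A/J to 94.2% in 129S1/SvImJ. State 4 took 15.2% of the lacking bins in A/J, 14.2% in CAST/EiJ and 14.2% in PWK/PhJ, and 6.93% or less in each of the other 6 strains.

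The longest stretches lacking state 3 in a single strain were few bins long. In CAST/EiJ, 1600 bp that held no annotated gene were in state 4 (chr14:115040601-115042200). In C57BL/6J, 1000 bp in Sds, which encodes serine dehydratase, were in state 5 (chr5:120476601-120477600). In A/J, 1000 bp in Skil, a corepressor of SMAD signalling, were in state 4. In WSB/EiJ, 1000 bp in Frmd4b were in state 1. In PWK/PhJ, 1000 bp at Gm33887 were in state 9. In NZO/HlLtJ, 800 bp at the start of Ppp1r3g, a glycogen-targeting subunit of protein phosphatase 1, were in state 9. The longest such stretches were 400 bp in DBA/2J and 400 bp in 129S1/SvImJ. In NOD/ShiLtJ the longest was 1000 bp in B4galnt1, split between states 6, 8 and 9.

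Start sites with a strand were available from RefSeq for 16457 protein-coding genes, none of them on chromosome 18, which holds 313 regions. Of the other 10427 regions, 7258 (69.6%) lay within 1 kb of a listed protein-coding start, and 6049 (58.0%) contained one. Stable regions of other states, built by the same rule, contained a listed start less often: 3.57% of state 1 regions, 1.60% of state 8 regions, 1.29% of state 9 regions, 0.219% of state 2 regions and 11.5% of regions of state 10 or 12. These percentages describe the whole sets and were not tested against each other.

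State 3 inside the regions also lay at starts more often than the same strain's state 3 elsewhere. In regions, the percentage of state 3 bins within 1 kb of a start was 72.8% in 129S1/SvImJ, 73.0% in A/J, 73.3% in C57BL/6J, 73.3% in CAST/EiJ, 72.7% in DBA/2J, 73.1% in NOD/ShiLtJ, 72.7% in NZO/HlLtJ, 74.1% in PWK/PhJ and 73.1% in WSB/EiJ. Outside them it ranged from 22.3% in NOD/ShiLtJ to 40.2% in PWK/PhJ, so the 2 sets of values did not overlap. The means were 73.1% ± 0.422 and 31.4% ± 5.12 (SD, n = 9), a difference of 41.8 ± 4.93 percentage points, higher inside in 9 of 9 strains. This is a description with no test: the split is the rule itself, and the in-region bins are nearly the same set in every strain.

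Starts tended to lie towards the upstream end of a region. For the 7446 pairs of a start and a region containing it, the region reached a median of 215.5 bp upstream of the start (quartiles 112 and 416 bp) and 432 bp downstream (quartiles 277 and 634 bp). It reached further downstream than upstream in 71.1% of pairs. The regions with starts on 1 strand, 6451 in number, had a median length of 600 bp, and the 807 regions with starts on both strands had a median of 800 bp.

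The states around these starts followed each other in the following order on average over strains. At the 6062 genes with a single listed start and a region, state 3 covered the start bin in 87.5% ± 1.79 of genes (SD, n = 9) and the next bin downstream in 84.3% ± 2.65. At 400 bp it covered 60.6% ± 3.92 downstream and 25.9% ± 2.05 upstream. State 1 flanked it on both sides, with 66.2% ± 2.54 of genes at 600 bp upstream and 65.7% ± 3.03 at 800 bp downstream. Beyond state 1 the sides differed in state 8, which rose to 37.6% ± 4.21 at 1600 bp downstream and was 14.6% ± 2.76 at 1600 bp upstream. State 9 reached similar heights on both sides, 34.2% ± 9.04 at 1800 bp upstream and 34.0% ± 9.99 at 2800 bp downstream. State 14 held 61.1% ± 7.13 of genes at 5 kb upstream and 45.3% ± 11.2 at 5 kb downstream.

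**Figure D2:**
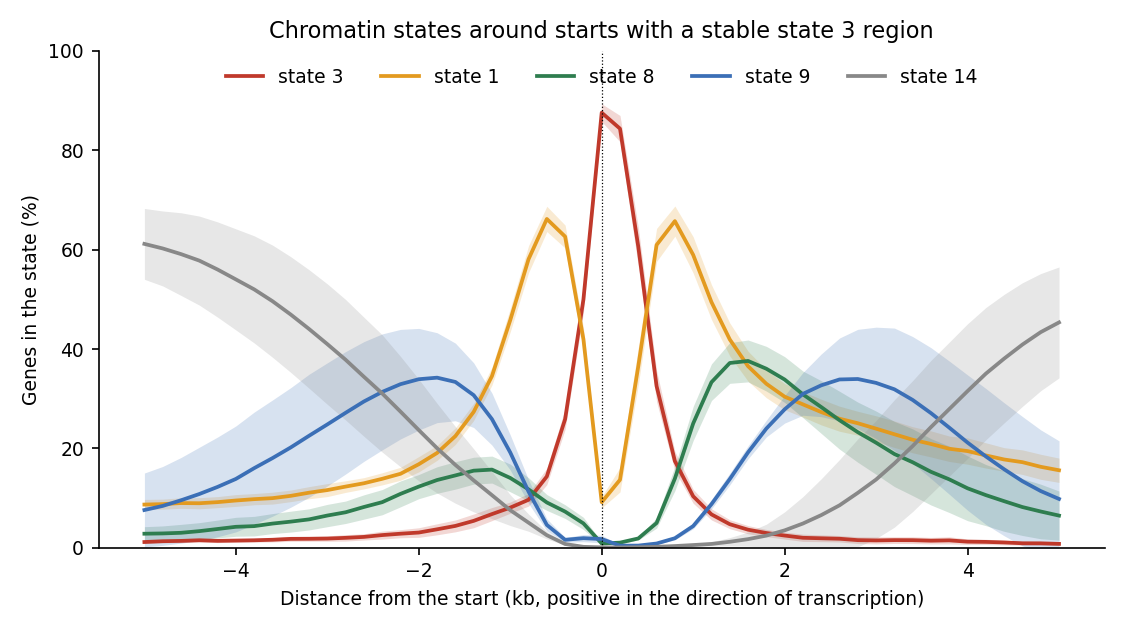
Percentage of 6062 genes (y axis) in each of 5 states by distance from the start in kb (x axis, positive in the direction of transcription). Lines are means and bands are SDs over 9 strains. State 3 peaks at 87.5% on the start bin, state 1 forms a shoulder on each side, and state 8 is higher downstream than upstream.

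The difference between the sides of a region was tested in the 1 kb next to the edges of the 6451 regions with starts on 1 strand. Of the 13 states other than 3, 10 (76.9%) differed between the transcribed and the other side at an adjusted p under 0.05. State 1 filled 74.5% of flanking bins on the transcribed side in 129S1/SvImJ, 68.0% in A/J, 74.4% in C57BL/6J, 69.9% in CAST/EiJ, 64.8% in DBA/2J, 70.5% in NOD/ShiLtJ, 66.4% in NZO/HlLtJ, 72.0% in PWK/PhJ and 73.5% in WSB/EiJ. Its mean was 70.4% ± 3.51 there and 63.1% ± 2.65 on the other side, and the difference within a strain was 7.32 ± 1.13 points, positive in 9 of 9. With only the nearest 2 bins counted, this difference was 2.66 points (adjusted p = 0.0609 in the exact sign-flip test).

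State 8 filled 18.2% ± 2.53 of bins on the transcribed side and 11.2% ± 2.22 on the other (difference 7.06 ± 0.825 points, 9 of 9 strains). Its direction turned within the nearest 2 bins, where it was lower on the transcribed side by 3.51 points, while the profile around starts has its state 8 peak at 1600 bp. State 9 was lower on the transcribed side, with 2.36% ± 0.347 against 10.8% ± 2.15. State 14 was also lower there, with 0.208% ± 0.0922 against 3.77% ± 1.57. Each of these 4 differences had an adjusted p of 0.00564 (exact sign-flip permutation test, two-sided, Benjamini-Hochberg over 13 states). Before adjustment each p was 0.00391, the smallest that 9 strains allow. Every strain was read at the same regions, so these p-values describe agreement between related strains, not between regions. States 2, 4, 6, 11 and 13 were lower on the transcribed side in 9 of 9 strains with the same adjusted p. Their differences were -1.02, -1.33, -0.572, -0.139 and -0.0699 points. With the nearest 2 bins only, state 13 missed the threshold (-0.00603 points, adjusted p = 0.135 in the exact test). State 5 was higher by 0.0255 points (adjusted p = 0.0203 in the exact test, higher in 7 of 9 strains). It no longer passed the threshold when any 1 of the 9 strains was left out, with 7 strains still required for members. States 7, 10 and 12 had adjusted p of 0.0739, 0.127 and 0.219 in the exact test, with mean differences of -0.00482, -0.0062 and -0.0138 points.

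**Figure D3:**
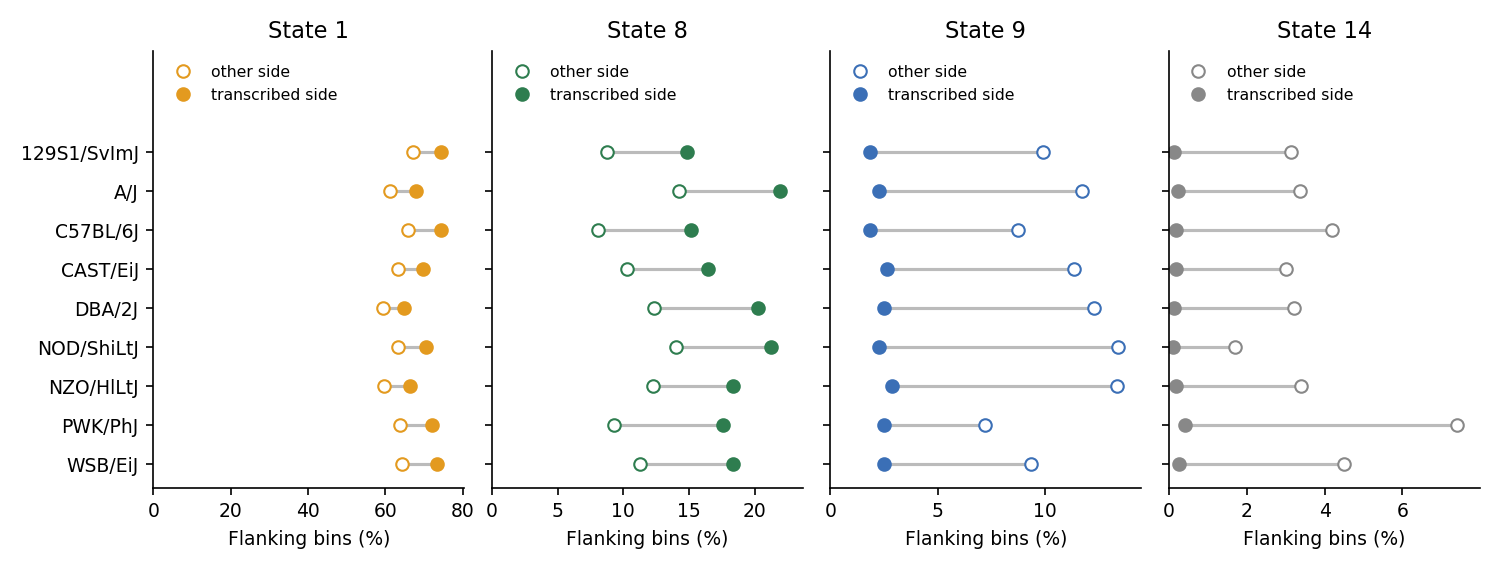
Percentage of flanking bins (x axis) in states 1, 8, 9 and 14 within 1 kb of region edges, by strain (y axis), on the transcribed side (filled circles) and the other side (open circles). In every strain the filled circle lies to the right for states 1 and 8 and to the left for states 9 and 14.

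The position of the state 3 edge varied more between strains on the transcribed side. At each region a strain's own state 3 edge was compared with the median edge over the strains. The mean distance between them was 65.3 bp ± 9.37 on the transcribed side, from 52.9 bp in C57BL/6J to 80.6 bp in DBA/2J. On the other side it was 42.0 bp ± 6.34, from 34.2 bp in C57BL/6J to 54.3 bp in DBA/2J. The difference was 23.3 bp ± 3.47, which is smaller than 1 bin of 200 bp. It is given with no test, because the state 3 calls of these strains set the edges. Both edges were the same in all 9 strains in 985 regions (9.17%).

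The number of regions differed between chromosomes more by length than by gene. Chromosome 11 had the densest cover, with 912 regions in 0.491% of its bins, and chromosome 14 the sparsest, with 378 regions in 0.198%. Per annotated protein-coding gene the extremes were 0.378 regions on chromosome 7 and 0.613 on chromosome 18.

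Gene lists of known function separated sharply in whether they had a region, against 46.4% of all listed genes (7643 of 16457 with a region within 1 kb of a start). Counted at either annotated end, so that genes with no listed start could enter, it was 43.4% (8965 of 20665). A region was present at 23 of 23 listed genes of the basal transcription machinery, 25 of 25 proteasome subunit genes and 18 of 18 genes of chromatin modifiers and histone H3K4 methylation. It was present at 56 of 60 cytosolic ribosomal protein genes. The exceptions were Rpl3l, Rpl10l, Rpl39l and Rpl32l, which are paralogs of the widely expressed members. At Rpl3l, Rpl10l and Rpl39l the start was most often in state 14, while at Rpl32l it was in state 1 in 7 strains. No strain had state 3 within 1 kb of any of the 4. These lists were written with earlier results of the same data known, so their counts are descriptions.

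Hepatocyte genes were marked like ubiquitous genes in this respect. Of 22 hepatocyte-expressed genes with a listed start, 21 had a region, and of 21 ubiquitously expressed genes, 20 had one. The hepatocyte gene without one was Cyp2e1, an alcohol-inducible cytochrome P450, whose start was in state 1 in 8 of 9 strains, while at most 5 strains had state 3 in any bin within 1 kb. The ubiquitous gene without one was Tubb5, a beta-tubulin, with state 8 at the start in 6 strains. Circadian clock genes had a region at 16 of 17 listed starts, with Bhlhe41 the exception at 6 strains, just under the threshold.

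Genes of other lineages had almost none. No region was found at 21 developmental regulators, which included Pax6, Sox2, Olig2, Neurog1 and Otx2, and no strain had state 3 within 1 kb of any of them. Their starts were most often in state 13 (11 genes), state 10 (8 genes) or state 12 (2 genes). None of 938 olfactory receptor genes and none of 18 muscle and neuron genes had a region. Of Kupffer cell and leukocyte markers, 1 of 12 had one, and of stellate cell and bile duct markers, 2 of 14.

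Endothelial markers had a region at 3 of 13 listed starts, and their state 3 varied widely between strains. The region near Egfl7, which encodes a protein secreted by endothelium, had a state 3 run of 3600 bp in PWK/PhJ, 3000 bp in 129S1/SvImJ and 0 bp in A/J. At Eng (endoglin) the run was 3000 bp in PWK/PhJ and 0 bp in WSB/EiJ, and at Stab1 (stabilin) it was 1400 bp in PWK/PhJ and 0 bp in A/J and NOD/ShiLtJ. At Cd68, a macrophage protein, it was 2200 bp in CAST/EiJ and 0 bp in A/J and NOD/ShiLtJ. None of these 4 regions contained the listed start. Of the 10 endothelial markers with no region, 8 had state 3 within 1 kb of the start in some strain, in at most 5 strains, while 10 of the 11 other Kupffer and leukocyte markers had it in none. Against the labelled cell type, the hepatocyte markers Alb, Apoa1, Apoa2, Apob, Fga, Fgb, Fgg, Tat and Hnf4a each had a region, while Cyp2e1 of the wider hepatocyte list had none. The part of other liver cells in these values was not tested.

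**Figure D4:**
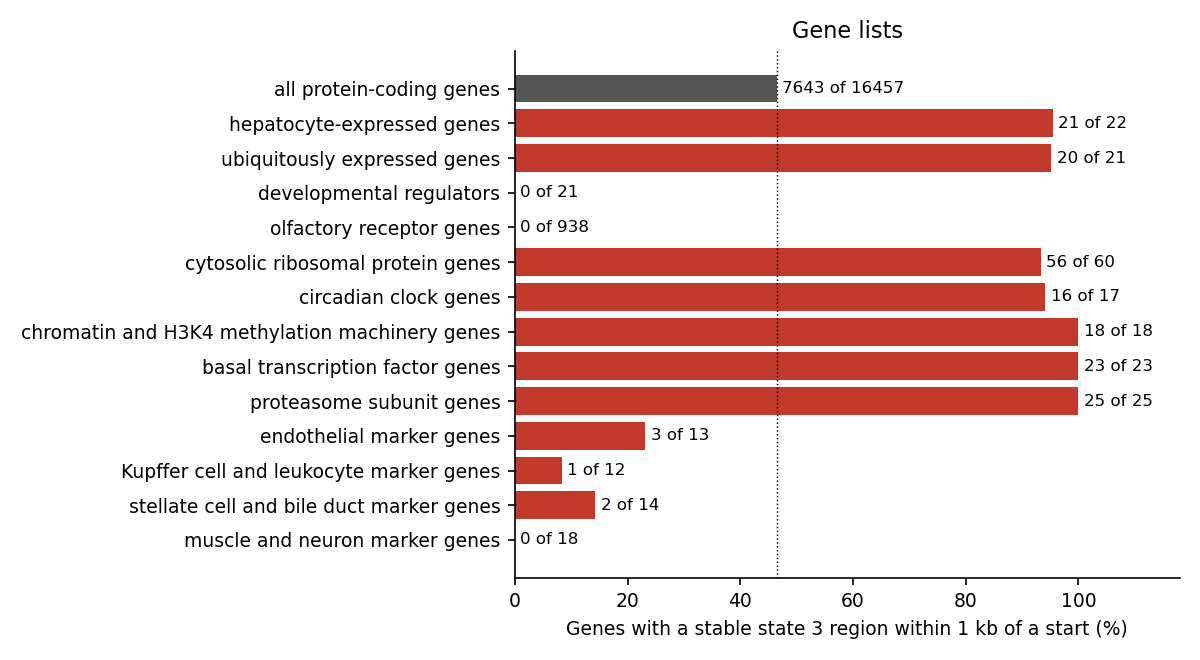
Percentage of genes with a listed start (x axis) that have a stable state 3 region within 1 kb of it, by gene list (y axis), with counts beside the bars. The dotted line is the 46.4% of all listed protein-coding genes. Lists of ubiquitous, hepatocyte and clock genes exceed 90%, and lists of other lineages lie at 23.1% or below.

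The regions of hepatocyte genes differed from those of ubiquitous genes in length. Over the 24 regions at starts of hepatocyte genes, the mean length of the state 3 run was 1992 bp in 129S1/SvImJ, 2225 bp in A/J, 1975 bp in C57BL/6J, 1817 bp in CAST/EiJ, 2208 bp in DBA/2J, 1808 bp in NOD/ShiLtJ, 2275 bp in NZO/HlLtJ, 1800 bp in PWK/PhJ and 1625 bp in WSB/EiJ. Over the 20 regions of ubiquitous genes it ranged from 940 bp in NOD/ShiLtJ to 1060 bp in DBA/2J, so the mean of the hepatocyte list was above that of the ubiquitous list in every strain. Single genes overlapped, as the values below show. The means were 1969 bp ± 227 and 1008 bp ± 39.9 (SD, n = 9), a difference of 962 bp ± 212. Run lengths come from the calls that chose the members, so this difference is a description with no test. The run lengths of all regions at starts averaged 807 bp ± 53.2 over the strains.

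Most of the added length lay in the transcribed part of the gene. At the 19 hepatocyte genes whose start lay in the region, state 3 reached 1897 bp ± 128 downstream and 256 bp ± 34.4 upstream of the start (mean over genes, SD over 9 strains). At 20 ubiquitous genes it reached 665 bp ± 26.2 downstream and 342 bp ± 17.6 upstream. At 55 ribosomal protein genes the values were 569 bp ± 33.3 and 289 bp ± 14.4, and at all 6527 such genes 550 bp ± 30.4 and 324 bp ± 17.1. The downstream reach of the hepatocyte list was at least 1714 bp in every strain, above the highest value of the other lists, 696 bp.

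Secreted plasma proteins and enzymes made up most of this list. At Alb (chr5:90460801-90462600), the promoter printed first above, the state 3 run was shortest in DBA/2J and WSB/EiJ (1400 bp), had a median of 2000 bp and was longest in A/J and C57BL/6J (2600 bp). At Apoa1, the main protein of high-density lipoprotein, the run ranged from 1000 bp in WSB/EiJ to 2800 bp in A/J. The 3 fibrinogen chain genes, which lie together on chromosome 3, had regions of 2200 bp (Fga), 2000 bp (Fgb) and 2400 bp (Fgg). Fgg varied most of these, from 2400 bp in 4 strains to 4800 bp in NZO/HlLtJ. Ahsg, which encodes fetuin-A, had a run of 2800 bp in 7 of 9 strains, 2600 bp in C57BL/6J and 3000 bp in NZO/HlLtJ.

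Among enzymes, Tat had a region of 2600 bp (chr8:109990201-109992800), with runs of 2400 to 3000 bp. Tdo2 (tryptophan dioxygenase) had one of 1800 bp, Hpd (a tyrosine-degrading dioxygenase) one of 1600 bp, and G6pc (glucose-6-phosphatase) one of 1600 bp. Pck1 had the widest spread of the list: 3600 bp in CAST/EiJ, 3200 bp in 129S1/SvImJ, A/J, NOD/ShiLtJ and WSB/EiJ, 2800 bp in C57BL/6J, 2200 bp in DBA/2J, 800 bp in NZO/HlLtJ and 400 bp in PWK/PhJ. The last 2 strains stood below all others.

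Transcription factors of hepatocyte identity had some of the longest regions. Cebpa had a region of 3000 bp (chr7:35119001-35122000), with runs of 4000 bp in 5 strains and of 2800 to 3000 bp in CAST/EiJ, NOD/ShiLtJ, PWK/PhJ and WSB/EiJ. Hnf4a had one of 2600 bp (chr2:163547001-163549600), with runs of 2600 to 3200 bp. Foxa2, a forkhead factor, had one of 2800 bp and was the exception in position, reaching 1736 bp upstream and 1063 bp downstream of the listed start. Short regions also occurred in the list: Hpx (hemopexin) had 1 bin of 200 bp, Ambp 600 bp and Serpina1a 400 bp, the last in a family of near-identical copies where read placement is uncertain.

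At ubiquitous genes, 5 of the 20 regions had the same run length in all strains. Polr2a and Ppia had runs of 1000 bp, Rab7 (a small GTPase of late endosomes) 800 bp, and Tbp and Psmb4 (a proteasome subunit) 600 bp. Others varied: B2m (a subunit of class I histocompatibility molecules) ranged from 800 to 1600 bp, Gapdh (a glycolytic enzyme) from 800 to 1400 bp, Snrpd3 (a spliceosome protein) from 1600 to 2400 bp and Gpi1 (glucose-6-phosphate isomerase) from 200 to 600 bp. The longest in the list was Ddx5, an RNA helicase, at 2200 to 2400 bp. Clock genes had a median region of 700 bp, against 800 bp for ubiquitous genes, and were spread widely: Nr1d1 (REV-ERBα) had runs of 1800 to 2600 bp, Clock of 1200 to 1600 bp, and Per1 and Ciart of 200 bp in every strain. In the list of chromatin modifiers, Kmt2c, a histone H3K4 methyltransferase, had the longest region at 2400 bp, with runs of 2400 bp in 8 strains and 2600 bp in C57BL/6J.

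**Figure D5:**
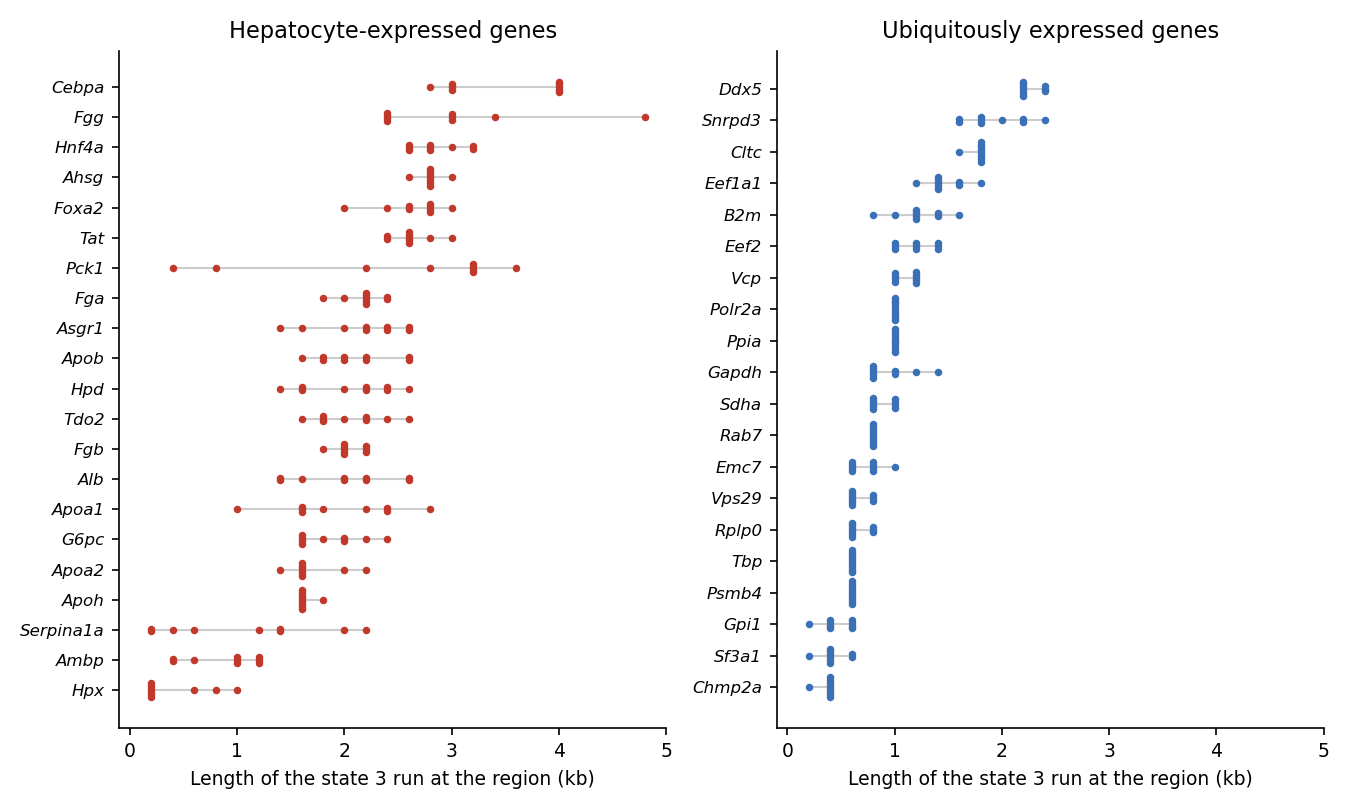
Length in kb of the state 3 run at the region (x axis) of each gene with a region (y axis, ordered by mean), in hepatocyte-expressed genes (left) and ubiquitously expressed genes (right). Each point is 1 strain, equal values are stacked, and grey lines join the lowest and highest. Most hepatocyte genes lie at 1.4 kb or more, and Polr2a, Ppia, Rab7, Tbp and Psmb4 have a single value in all 9 strains.

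The flanks of the 2 lists gave no stable difference. State 1 filled 82.3% ± 6.00 of the 1 kb on both sides of hepatocyte regions and 76.8% ± 3.28 at ubiquitous genes. The difference of 5.49 ± 4.54 points was positive in 9 of 9 strains (adjusted p = 0.00391, exact sign-flip test) but only 0.25 points in NZO/HlLtJ. Both lists were written with earlier results of these data known, and every strain was read at the same regions. This p therefore describes agreement between strains, not a difference between kinds of gene. In the nearest 2 bins the difference was reversed, at -12.1 points (adjusted p = 0.0156 in the exact test), and over 10 bins it was 28.4 points. With members required in all 9 strains it was -1.57 points (p = 0.41 in the exact test). Without NOD/ShiLtJ it was 1.11 points (adjusted p = 0.516 in the exact test), and it also missed the threshold without WSB/EiJ, A/J, CAST/EiJ, C57BL/6J or 129S1/SvImJ.

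The longest region of all held the starts of Brd2 and H2-DMa (chr17:34118001-34122800). Its state 3 run was 5000 bp in 129S1/SvImJ and NZO/HlLtJ and 4800 bp in the other 7 strains. Regions of 4000 bp lay at Bcl6, a transcriptional repressor, with runs of 3600 to 4800 bp, and at Irf2bp2, with runs of 4000 to 4400 bp. Regions of 3800 bp lay at Abcc2, with runs of 3600 to 4600 bp, and at Tnrc18. A region of 3600 bp with no listed protein-coding start within 1 kb overlapped Cps1, which encodes carbamoyl phosphate synthetase of the urea cycle (chr1:67122801-67126400). The others of the 10 longest were at Anp32a (3600 bp, shared with Gm20346) and at Zfp36l1, Ptch1 and Arrdc3 (3400 bp each). Arrdc3, an arrestin-domain protein, had 3400 bp in 8 strains and 3200 bp in WSB/EiJ.

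Among regions of at least 1 kb at a start, some had the same edges in every strain and others varied widely. Of 1890 regions of at least 1 kb at a start, 115 had identical edges in all 9 strains, against 985 of all 10740 regions. The longest were at Yy1 (2600 bp, chr12:108792201-108794800), Gtf2a1 (2200 bp), Syncrip and Stag1 (1800 bp each), Ube2g1, Ell2 and the shared start region of Mbtd1 and Utp18 (1600 bp each), and Ctdsp1, Macir and Tab2 (1400 bp each). Gtf2a1 is a subunit of the general factor TFIIA, Syncrip binds RNA and Stag1 is a cohesin subunit. The widest spread among these 1890 regions was at Tnrc18, from 3400 bp in WSB/EiJ to 8200 bp in NZO/HlLtJ, a range of 4800 bp. Over all 10740 regions the largest range between strains was 8200 bp, so the most variable region lay outside this set.

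Other wide spreads came from single strains or from a graded series. At Cpeb4, which regulates translation, the run was 1200 bp in 7 strains, 1400 bp in WSB/EiJ and 4200 bp in DBA/2J. At H1f0, a linker histone, it was 4000 bp in DBA/2J, 2800 bp in NOD/ShiLtJ and 1000 bp in PWK/PhJ and WSB/EiJ. At Arid5b it ranged from 1000 bp in PWK/PhJ to 4000 bp in DBA/2J, and at Coq8a from 1200 bp in CAST/EiJ to 4000 bp in DBA/2J. DBA/2J had the highest run at Cpeb4, H1f0, Arid5b, Coq8a, Gas1, Ugt2b36 and Gsta3, and shared it with NZO/HlLtJ at Cflar. DBA/2J also had the longest mean run over all regions at starts, 888 bp, against 741 bp in NOD/ShiLtJ. Gas1, a growth arrest protein, had 0 bp in PWK/PhJ against 800 to 2800 bp elsewhere. Ugt2b36 (a glucuronosyltransferase) had 200 bp in PWK/PhJ and Gsta3 (a glutathione transferase) 200 bp in CAST/EiJ. Both belong to gene families with close copies, where read placement is uncertain.

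The regions without a listed protein-coding start, 3169 in number, were shorter, with a median of 400 bp, and 41.1% of them were single bins, against 14.7% of those at starts. Of these, 334 lay within 1 kb of a listed start of another kind of gene. A further 1578 lay within 1 kb of an annotated end of a gene, which can be a start that the promoter table does not list. Another 827 lay inside gene bodies, 225 outside genes but within 5 kb, and 205 further away. The longest far from genes was 2000 bp on chromosome 15 (chr15:85670401-85672400), 29.9 kb from the nearest annotated gene, with runs of 2000 to 2400 bp in all strains. The next 3 were 1600 bp each, on chromosomes 1, 4 and 8. The one on chromosome 1 had a run of 200 bp in CAST/EiJ and 1000 bp in PWK/PhJ against 1600 to 1800 bp in the other 7 strains.

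Flanks of regions without a listed protein-coding start carried less state 8. It filled 9.15% ± 1.66 of flanking bins there, 14.7% ± 2.34 at regions with starts on 1 strand and 21.8% ± 3.02 at regions with starts on both strands, and the ranges over strains of the first and the last did not overlap. State 1 was alike in all 3 kinds, at 65.2% ± 2.53, 66.8% ± 3.06 and 65.5% ± 3.66. These differences were not tested.

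Promoters in the regions were mostly rich in CpG dinucleotides, the sites of DNA methylation in mammals, which cluster in CpG islands at many promoters. A promoter was taken as the 300 bases from 250 before to 50 after a listed start, and called CpG-rich at an observed over expected CpG ratio of at least 0.6 with at least 50% G and C. Of all 20085 promoters 46.5% were CpG-rich. Of the 7446 whose start lay in a region 83.8% were, and of the 12639 others 24.5%. Put the other way, 66.9% of CpG-rich and 11.2% of CpG-poor promoters started in a region. In the longest regions, those of at least 2 kb, 152 of 203 promoters (74.9%) were CpG-rich.

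CpG-rich promoters had longer state 3 runs on average, 817 bp ± 48.4 over 5401 regions against 740 bp ± 69.0 over 1451 regions with CpG-poor promoters (SD, n = 9). The difference of 76.9 bp ± 21.4 ranged from 35.0 bp in DBA/2J to 98.9 bp and is a description with no test, since the same state 3 calls chose the regions. It depended on the shortest members: without regions of 1 bin it was 7.53 bp. Hepatocyte genes went the other way, since only 2 of their 21 promoters with a region were CpG-rich while their runs were long. The median CpG ratio of that list was 0.243, against 0.836 for ubiquitous genes, of which 18 of 20 were CpG-rich. The printed promoters show the contrast, with a ratio over 300 bases of 0.272 at Alb and 0.0667 at Abcc2 against 0.995 at Polr2a and 1.16 at Ppia.

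Short motifs were counted on both strands of the same 300 bases. The TATA box, searched as TATAAA, was in 5.24% of promoters in regions and 17.1% of others (12.7% of all). Among CpG-poor promoters alone it was in 11.05% of those in regions and 20.9% of others, and among CpG-rich promoters in 4.12% and 5.43%. Of the printed promoters, Polr2a and Ppia hold it 33 and 29 bases before the start. In regions of at least 2 kb it was in 12.8% of promoters, near the share of all. The GC box, searched as GGGCGG, was in 72.2% of promoters in regions and 32.2% of others (47.0% of all). Within CpG-rich promoters it was in 78.0% and 74.4%, and within CpG-poor promoters in 41.9% and 18.6%.

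The letters of ETS, NRF1 and YY1 sites, bound by factors that act at many ubiquitous genes, were more common in the regions in both CpG classes. The ETS site, searched as CCGGAAG, was in 24.4% of promoters in regions and 4.49% of others (11.9% of all). It was in 25.6% against 9.18% of CpG-rich promoters and in 18.2% against 2.96% of CpG-poor ones. The YY1 site, searched as AAGATGGCG, was in 4.22% against 0.427% (1.83% of all), and 85.3% of the promoters that hold it started in a region. It is the only motif in capitals in the printed promoter of Brd2. In regions of at least 2 kb, however, the YY1 site was in 0.985% of 203 promoters and the ETS site in 9.36%, both below the share of all. The NRF1 site was in 4.93% of them, above the share of all. The NRF1 site, searched as GCATGCGC, was in 6.96% against 1.54% (3.55% of all). The CRE, searched as TGACGTCA, was in 4.04% against 1.27% (2.30% of all). The E-box, searched as CACGTG, was in 11.1% against 6.02% (7.89% of all). Among CpG-rich promoters alone the E-box was about equally frequent, in 11.8% of those in regions and 11.2% of others. Among CpG-poor promoters it was in 7.23% and 4.33%. The CCAAT box, searched as CCAAT, was about equally frequent over both CpG classes together, in 39.04% and 37.6% (38.1% of all). Within the classes it was more common in the regions, in 37.0% against 34.1% of CpG-rich promoters and 49.6% against 38.7% of CpG-poor ones.

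Motifs of hepatocyte factors were rare in promoters of either kind. The HNF1 site, searched as GTTAATNAT, was in 0.416% of promoters in regions and 0.886% of others (0.712% of all). Among CpG-poor promoters it was in 2.16% and 1.12%, and the printed promoter of Alb holds it. The HNF4 site (CAAAGTCCA) was in 0.336% and 0.538% (0.463% of all), the C/EBP site (TTGCGCAA) in 0.363% and 0.135% (0.219% of all), the FOXA site (TGTTTAC) in 2.47% and 3.37% (3.04% of all), and the HNF6 site (TATTGAT) in 0.712% and 2.32% (1.72% of all). Among CpG-poor promoters alone, the HNF4 site was in 0.997% of those in regions and 0.639% of others. There the C/EBP site was in 0.249% and 0.115%, the FOXA site in 3.99% and 4.00%, and the HNF6 site in 1.66% and 2.85%. In the 203 promoters in regions of at least 2 kb, 3 sites were above the share of all. These were HNF1 (4 promoters, 1.97%), C/EBP (3, 1.48%) and FOXA (11, 5.42%). The HNF6 site (3, 1.48%) and the HNF4 site (0) were below it. The GC box, ETS site, NRF1 site and E-box are rich in G and C, and the counts were not adjusted for base composition, whose median was 63.3% G and C in promoters in regions and 52.3% in others. A match is a description of letters and not evidence of binding.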

How the data were processed

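ChIP-seq libraries of hepatocytes from 9 strains were grouped by the strain in their labels. The authors deposited 1 segmentation per strain, per the file headers, as intervals in steps of 200 bp whose column 4 is a category (the state number, no count or score). A joined file was identical to the strain files and was not used. The submitters' processing notes name mm10, FastQC 0.11.5 and MACS 1.4.2 with no role. The aligner, the segmentation tool and depth are not given in the sources used here, so no counting error is stated, and whether the strains were segmented jointly is not known.

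Starts and promoter sequences came from RefSeq (GRCm38.p6), 20085 starts on the autosomes, none on chromosome 18. Region coordinates count from 1. A run is the stretch of state 3 in a strain that overlaps a region. It is 0 where the strain has none. Flanking states other than 3 were compared within strains by exact sign-flip permutation over strains (two-sided, 512 patterns), with Benjamini-Hochberg adjustment over 13 states or over the 5 comparisons first planned. Of those 5, the lengths, edges and positions of state 3 are given with no test, because state 3 chose the members. The strains share ancestry, and the spread is between strains, not mice.

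Genes named were members of 13 lists, the 10 longest regions, the 5 longest more than 5 kb from genes, the longest run missing in 1 strain, the 10 widest spreads and 10 longest identical edges of at least 1 kb, and the longest 3 runs at 6 and 7 strains. The members and lists were chosen with earlier results of these data known. Alternatives changed the number of strains, the strains used, gaps, single bins, windows, flanks, gene set and CpG limit. The code, with scipy 1.17.1, pandas 2.3.3, numpy 2.4.6 and matplotlib 3.10.9 under Python 3.11.15, was tested on simulated segmentations and found each planted region.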

Additional observations from a re-analysis of the deposited data

Results flagged for a closer look

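In 3 of 24 sets of 9 strain values, a single strain stood apart from the rest by a gap above Dixon's critical share of the whole range for 9 values, where chance gives about 1.2 of 24 (about 1 set in 20). PWK/PhJ had the highest percentage of in-region state 3 bins within 1 kb of a start, 74.1%, while the other 8 strains lay between 72.7% and 73.3%. PWK/PhJ also had the largest difference between sides in state 14, -6.97 points (transcribed minus other side), against -4.26 to -1.57 in the others. NOD/ShiLtJ had the largest difference between sides in state 11, -0.350 points, against -0.149 to -0.0403 in the others.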

How the results depend on the processing

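No paired analysis was possible because replicate numbers are lost where a segmentation merges the 3 mice of its strain. The comparisons given are matched by strain only. Under the alternatives run, the number of regions stayed between 8285 and 11703, the number of states that differed between sides between 9 and 11, and the differences in position at starts, in edge deviation and in length between hepatocyte and ubiquitous genes kept their direction.

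The percentage of genes with a region (46.4%) became 47.5% at 6 strains, 45.1% at 8, 43.0% at 9, 41.3% without single bins and 33.8% over all kinds of annotated gene, and 45.3% to 45.7% with a strain left out. The percentage of regions at a start (69.6%) became 66.3%, 72.7% and 75.8% at 6, 8 and 9 strains, 76.8% without single bins, 67.2% and 72.4% at 500 bp and 2 kb, 72.8% over all annotated genes, and 71.1% to 72.3% with a strain left out. The hepatocyte minus ubiquitous difference in flanking state 1 (5.49 points) became 10.9 at 6 strains, 2.89 at 8 strains (exact p = 0.117), -1.57 at all 9 strains, -12.1 with 2 flanking bins (exact p = 0.0156) and 28.4 with 10, and 1.11 to 4.52 with a strain left out. The CpG difference in length became 7.53 bp without single bins. The cause was not tested, beyond the removal of short regions itself.

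Among single states, with 2 flanking bins state 8 reversed to -3.51 points. State 5 reversed to -0.0085 at all 9 strains and state 12 to 0.0086 with 10 flanking bins, both tiny shares. State 5 passed the threshold in the reported setting but in none of the 9 settings that left out a strain. State 10 passed it in 8 of those settings. State 13 missed it with 2 flanking bins (-0.00603 points).

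The median list results rest on few genes, and starts are listed for only 16457 of 20665 annotated genes. By either annotated end instead, an alternative chosen after seeing the data, 43.4% of genes had a region, with 25 of 30 hepatocyte and 24 of 28 ubiquitous genes. Depth per strain is unknown, and its part in where a strain lacks state 3 was not tested.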
